A study of Mus musculus with 30 samples.

Results

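The genes described here are the interferon-stimulated genes of the mouse, a list of 39 symbols whose transcripts rise when cells receive type I or type II interferon. Each was read from the probe set annotated to its symbol alone. Of the 39, 35 were measured, out of 18781 genes that a probe set represents. The other 4 were not measured on their own: the probe sets of Gbp6, Parp9 and Igtp are shared with neighbouring genes of the same families or loci, and Ifi44 has no probe set in the annotation used. The 35 measured genes each had 1 probe set of their own, so that no choice between probe sets entered their values. That of Isg15 is counted among the 35, though its assignment is uncertain, as given below.

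The study compared gene expression after a 24 h fast with the fed state in 3 tissues of male C57Bl/6 mice (C57Bl/6 J in the study's methods) aged 10 to 12 weeks. Fasted mice lost their food at the start of the light phase, and fed mice kept free access to chow for the same 24 h. The tissues were liver (LIV), thigh skeletal muscle (SM) and the epididymal fat pad, a white adipose tissue (WAT), and each was hybridised to Affymetrix Mouse Gene 1.1 ST arrays, 1 array per mouse and tissue, with 5 biological replicates in each of the 6 groups. By the study's text the RNA came from 5 fasted and 5 control mice, so the 3 tissues share animals. The labels do not say which arrays share a mouse, and the main fit treats all arrays as independent. No group carried a transgene or deletion according to the labels, all mice were male, and RNA came from whole tissue with all the cell types it holds. Values are log2 signals after robust multi-array averaging (RMA), on which a difference of 1 is a doubling.

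Interferons are cytokines that bind receptors on the cell surface and activate JAK kinases and STAT transcription factors. STAT factors in a complex with IRF9 bind the interferon-stimulated response element (ISRE), and STAT dimers bind the gamma-activated sequence (GAS). The genes downstream encode proteins that block virus replication, sense foreign nucleic acid, attack vacuoles that hold microbes and prepare peptides for presentation on MHC class I, and most of them are also transcribed at a lower level without infection.

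Promoters of 6 genes are printed to show the element through which interferon acts: the 4 of genes that fell in all 3 tissues for which a window was at hand (Gbp2, Gbp3, Gbp7 and Ifit3) and those of Trim25 and Isg20, which rose. Each line is the 170 bases before an annotated transcript start, 5′ to 3′ on the + strand (the first of 3 annotated starts for Isg20), from RefSeq (build GRCm38.p6), at chr3:142620493-142620662 for Gbp2, chr3:142559874-142560043 for Gbp3, chr3:142530166-142530335 for Gbp7, chr19:34583359-34583528 for Ifit3, chr11:88999233-88999402 for Trim25 and chr7:78913254-78913423 for Isg20. Capitals mark the ISRE core, GAAANNGAAA, or the same element read from the other strand, TTTCNNTTTC.
Gbp2: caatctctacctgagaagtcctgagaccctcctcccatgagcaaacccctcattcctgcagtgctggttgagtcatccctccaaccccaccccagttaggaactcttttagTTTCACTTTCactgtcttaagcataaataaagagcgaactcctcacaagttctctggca
Gbp3: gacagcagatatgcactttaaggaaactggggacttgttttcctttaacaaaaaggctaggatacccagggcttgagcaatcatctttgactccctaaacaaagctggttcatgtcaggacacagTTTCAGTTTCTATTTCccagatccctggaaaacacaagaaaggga
Gbp7: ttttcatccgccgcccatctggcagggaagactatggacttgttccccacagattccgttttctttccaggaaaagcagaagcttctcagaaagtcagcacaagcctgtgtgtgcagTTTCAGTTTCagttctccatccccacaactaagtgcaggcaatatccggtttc
Ifit3: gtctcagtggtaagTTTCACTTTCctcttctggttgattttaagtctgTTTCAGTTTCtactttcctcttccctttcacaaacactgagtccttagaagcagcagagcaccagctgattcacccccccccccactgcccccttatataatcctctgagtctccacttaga
Trim25: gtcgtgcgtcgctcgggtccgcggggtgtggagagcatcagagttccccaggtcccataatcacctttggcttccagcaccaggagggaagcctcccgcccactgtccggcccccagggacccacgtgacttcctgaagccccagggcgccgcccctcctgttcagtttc
Isg20: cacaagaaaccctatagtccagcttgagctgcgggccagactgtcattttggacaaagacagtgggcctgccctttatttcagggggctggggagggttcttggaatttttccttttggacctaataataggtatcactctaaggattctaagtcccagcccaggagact
The ISRE core began 59 bases before the start in Gbp2 and 53 before it in Gbp7. Gbp3 held 2 overlapping matches, at 45 and 39 bases before the start, and Ifit3 held 2 separate ones, at 156 and 122. The printed stretches of Trim25 and Isg20 held no match.

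Over windows of 300 bases (250 before a start and 50 after it), an ISRE core was present in 16 of the 34 windows of listed genes (47.1%) and in 1131 of all 32851 windows (3.44%). The GAS core, TTCNNNGAA, which reads the same on both strands, was present in 9 of the 34 (26.5%) and in 2726 of all windows (8.30%). A window was at hand for 28 of the 35 measured genes. Among the 15 with an ISRE match, 8 fell in WAT, 5 in LIV and 5 in SM. Among the 13 without a match 2 fell in WAT, 3 in LIV and 5 in SM. In 1 tissue or more, 9 of the 15 with a match and 7 of the 13 without fell. Over all genes 7.75% fell in WAT, 4.01% in LIV, 5.78% in SM and 14.4% in 1 tissue or more. A match describes the letters of the window and was not tested as a binding site.

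Of the 30 arrays, 2 stood apart from their groups and were left out, which left 28. Fasted SM 5 correlated with the other fasted SM arrays at a mean r of 0.980, where those 4 stood at 0.991 to 0.992. Its mean over B cell markers (4 of 5 measured, among them Cd79a) was 8.78, against 3.83 to 4.26 on the other 9 SM arrays, and its mean over T and NK cell markers (6 of 7 measured) was 6.38, against 3.72 to 3.87. On this array 31 of the 35 interferon-stimulated genes were above every other fasted SM array, and 23 were above every fed SM array. Fed LIV 4 correlated with its group at a mean r of 0.987, with 0.991 to 0.993 for the other fed LIV arrays, and 17 of the 35 genes were lower on it than on the other 4 while 7 were higher. Counts of calls among the 35 genes are given with and without these arrays, and values of single genes in part. Statements on overlap of groups refer to the 28 arrays used. Calls on the other gene lists are over the 28 arrays only. Markers of hepatocytes, adipocytes and muscle fibres marked their own tissue: list means were 12.5 to 12.6 for hepatocytes in LIV, 11.4 to 12.3 for adipocytes in WAT and 12.5 to 12.6 for muscle fibres in SM. SM also held adipocyte markers, at list means of 7.37 to 9.84.

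Fasting lowered many of the interferon-stimulated genes in each tissue. In WAT, 13 of 35 fell and 3 rose, in LIV 10 fell and 0 rose, and in SM 11 fell and 1 rose, where a call needs an adjusted p under 0.05 in the limma fit over all probe sets and a change of at least 1.3-fold. Among all genes, 7.75% fell in WAT, 4.01% in LIV and 5.78% in SM, so that the shares of the list, 37.1%, 28.6% and 31.4%, lay above these backgrounds. The background of rises was 7.99% in WAT, 3.53% in LIV and 7.8% in SM, against 8.57%, 0% and 2.86% of the list. Calls down without any overlap between the fed and fasted arrays used numbered 12 (WAT), 4 (LIV) and 10 (SM), against 6.29%, 3.43% and 4.67% of all genes. In bulk tissue, fewer cells of a type and less RNA per cell cannot be told apart.

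With all 30 arrays the counts were 11 down and 3 up in WAT, 7 down in LIV, and 5 down and 1 up in SM. The 5 that fell in SM with fasted SM 5 kept in were Gbp2, Gbp3, Gbp7, Rtp4 and Stat2, while Cmpk2, Ifit3, Psmb8, Psmb9, Tap1 and Xaf1 were no longer called there. Gbp3, Ifit3 and Rtp4 were no longer called in LIV, nor Psmb9 and Rsad2 in WAT. With fasted SM 1 left out in place of fasted SM 5, the set that the text of the study names, 4 fell in SM (Gbp2, Gbp3, Gbp7 and Rtp4) and 1 rose (Trim25). The SM count therefore rests on which fasted SM array is left out. The SM fold differences that the study lists for Gbp2 and Gbp3 equal those found here without fasted SM 5. In LIV, 6 genes fell when fasted LIV 4 was left out of the 28 arrays, and Bst2, Gbp3, Ifit3 and Rtp4 were then not called.

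Most genes of the list that were not called also lay below 0. The change was negative for 29 of 35 in each tissue, against 48.5%, 41.1% and 50.9% of all genes in WAT, LIV and SM, and for 23 of 35 in all 3 tissues at once, against 14.9% of all genes. The median change of the list was -0.27 in WAT, -0.25 in LIV and -0.25 in SM, and that of all genes was 0.01, 0.03 and -0.004. With all 30 arrays the median of the list in SM was -0.088, with 24 of 35 below 0.

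**Figure D1:**
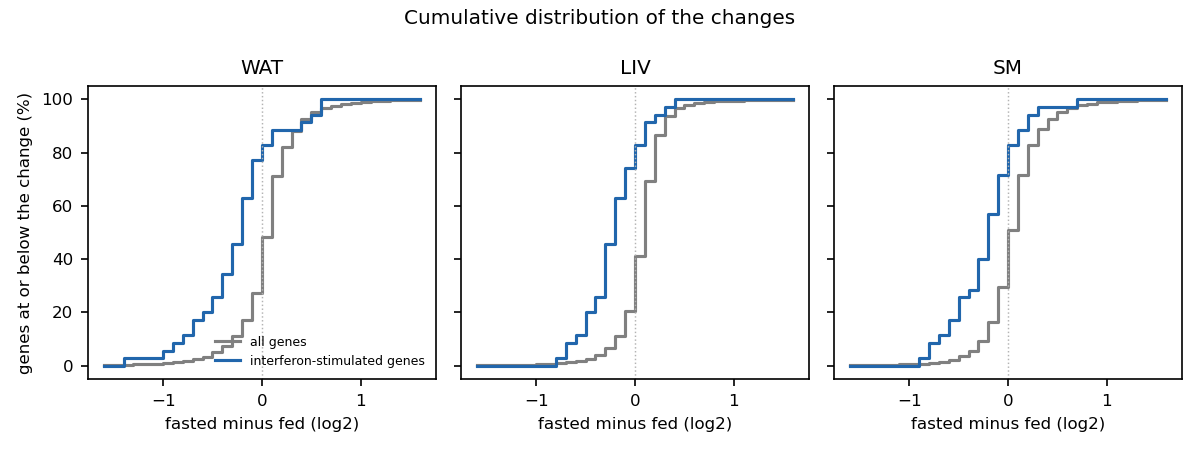
Cumulative share of genes (percent, y axis) at or below a given fasted minus fed change (log2, x axis) in WAT, LIV and SM, for the 35 interferon-stimulated genes (blue) and all 18781 genes (grey), over the 28 arrays used. The blue curve lies to the left of the grey one over most of its length in each tissue, with medians of -0.27, -0.25 and -0.25 against 0.01, 0.03 and -0.004.

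The fall of the median was also read array by array, where the groups were apart in WAT and SM and overlapped in LIV. For each array, the median over the 35 genes of the deviation from the fed mean of its tissue was computed. In WAT the 5 fed arrays stood at -0.11, 0.16, 0.02, -0.08 and -0.02 and the 5 fasted arrays at -0.27, -0.30, -0.36, -0.26 and -0.24, so every fasted array was below every fed one. In LIV the 4 fed arrays used were at -0.16, 0.11, -0.02 and 0.07 and the fasted arrays at -0.17, -0.22, -0.38, -0.44 and -0.09, and here fasted LIV 5 was above fed LIV 1. Fed LIV 4, left out, was at -0.15, also below fasted LIV 5. In SM the fed arrays were at -0.06, 0.13, -0.003, 0.07 and -0.14, the 4 fasted arrays used at -0.19, -0.34, -0.30 and -0.21, and the array left out at 0.31, above all fed arrays. Within the 28 arrays, the SM groups did not overlap.

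**Figure D2:**
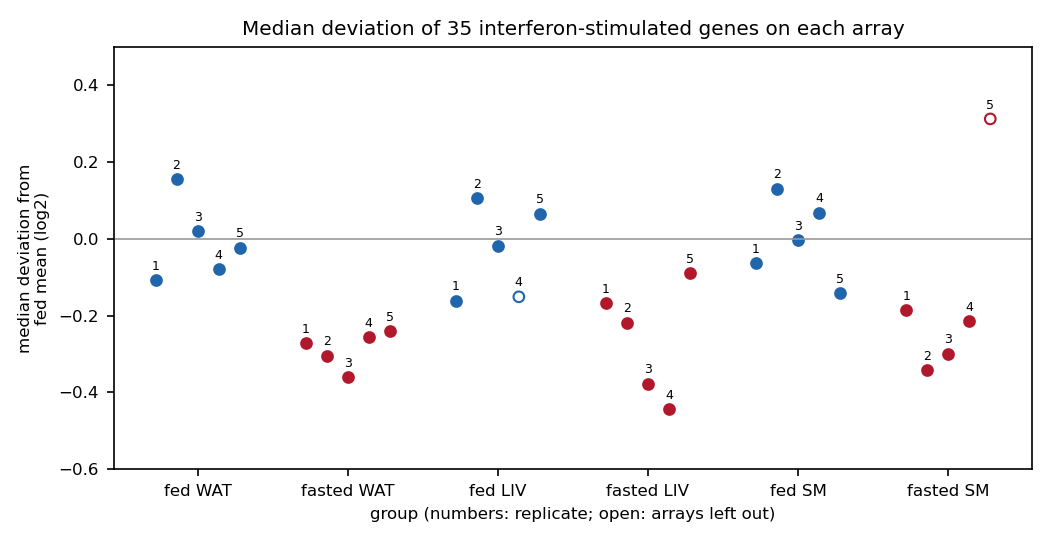
Median over 35 interferon-stimulated genes of the deviation from the fed mean of the same tissue (log2, y axis) for each of the 30 arrays, by group (x axis), with fed arrays in blue, fasted arrays in red, arrays left out as open circles and the replicate number above each point. Fasted WAT arrays lie between -0.36 and -0.24, all below the fed WAT arrays, and fasted SM 5, left out, lies at 0.31. The LIV groups overlap, and fed LIV 4, left out, lies at -0.15.

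Across tissues, 5 genes fell in all 3 (Gbp2, Gbp3, Gbp7, Ifit3 and Rtp4), where 0.351% of all genes did. The tissues share mice, so falls in several tissues are not independent readings. With all 30 arrays, or without fasted LIV 4, those that fell in all 3 were Gbp2 and Gbp7. In 2 or 3 tissues 9 genes fell (background 2.8%), the others being Bst2, Cmpk2, Psmb9 and Xaf1, and in 1 tissue or more 20 fell (background 14.4%). Rises were called for 3 genes in 1 tissue or more (background 15.5%): Trim25, Isg20 and Oas2.

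**Figure D3:**
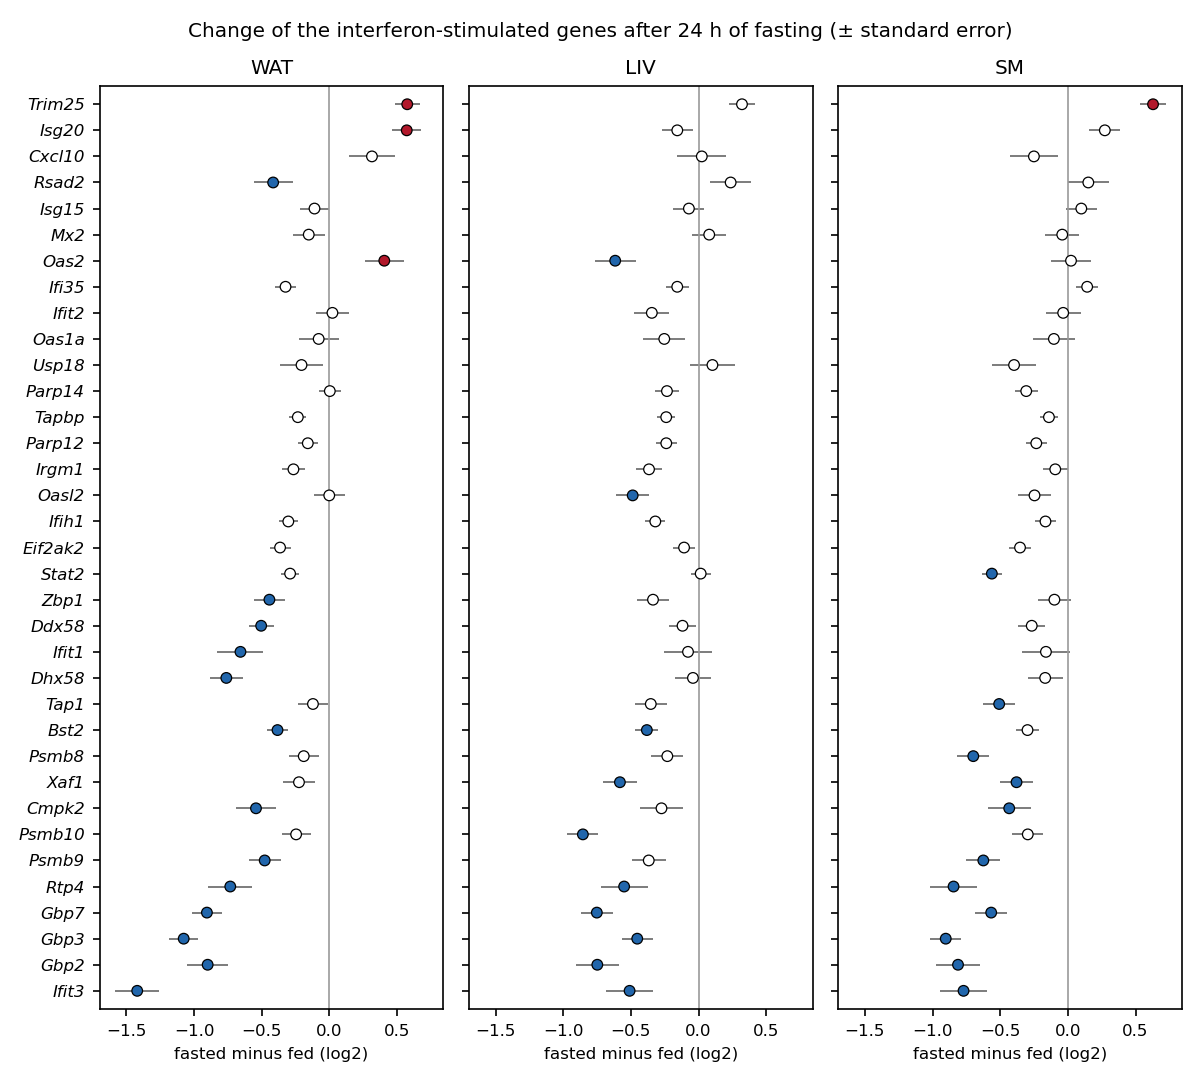
Fasted minus fed change (log2, x axis) with its standard error for the 35 interferon-stimulated genes (y axis, ordered by the sum of their changes) in WAT, LIV and SM, over 28 arrays. Blue marks genes that fell, red genes that rose and white genes not called, with 13, 10 and 11 blue points and 3, 0 and 1 red ones.

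The interferon-induced GTPases coat vacuoles that hold microbes, and 4 of the 6 listed were measured: 3 of these 4 (Gbp2, Gbp3 and Gbp7, guanylate-binding proteins) fell in every tissue and the other (Irgm1, an immunity-related GTPase) was called in none. Gbp2, Gbp3 and Gbp7 lie in 1 cluster on chromosome 3 and belong to a family of similar genes. Cross-hybridisation between their probes was not tested, so they may not be independent readings. The median change of the 4 was -0.90 in WAT, -0.60 in LIV and -0.69 in SM. Over all genes 7.75% fell in WAT, 4.01% in LIV and 5.78% in SM.

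Gbp2 stood at 8.89, 9.18, 9.02, 8.92 and 9.04 on the fed WAT arrays and at 7.94, 8.25, 7.89, 8.19 and 8.27 on the fasted ones. The fed LIV arrays read 5.53, 6.39, 5.69 and 6.03 and the fasted ones 5.27, 4.81, 5.07, 4.87 and 5.78. In SM the fed values were 6.69, 7.14, 6.89, 7.21 and 6.79 and the fasted values 6.25, 6.04, 6.12 and 6.12, with 6.88 on the array left out. Fasted WAT and SM arrays were below all fed ones, whereas in LIV fasted array 5 was above fed arrays 1 and 3. The change was -0.90 ± 0.15 (SE), a 1.87-fold difference with an adjusted p of 4.22e-05 in WAT, -0.75 ± 0.16 (SE), a 1.68-fold difference with an adjusted p of 0.00181 in LIV and -0.81 ± 0.16 (SE), a 1.76-fold difference with an adjusted p of 3.75e-04 in SM.

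Gbp3 read 7.14, 7.56, 7.40, 7.52 and 7.49 in fed WAT and 6.32, 6.24, 6.25, 6.36 and 6.55 in fasted WAT. In LIV it read 5.67, 5.92, 5.75 and 5.99 when fed and 5.63, 5.37, 5.16, 5.01 and 5.70 when fasted. In SM the fed arrays gave 5.86, 6.14, 6.11, 6.24 and 6.04 and the fasted arrays 5.22, 5.07, 5.33 and 5.09, while the array left out gave 6.36, the highest of all SM arrays. The groups were apart in WAT and SM and overlapped in LIV through fasted array 5. The change was -1.08 ± 0.11 (SE), a 2.11-fold difference with an adjusted p of 1.83e-08 in WAT, -0.45 ± 0.12 (SE), a 1.37-fold difference with an adjusted p of 0.00805 in LIV and -0.90 ± 0.12 (SE), a 1.87-fold difference with an adjusted p of 1.05e-06 in SM.

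Gbp7 was at 8.69, 9.01, 8.80, 8.97 and 8.85 in fed WAT and 7.83, 7.93, 7.94, 7.83 and 8.26 in fasted WAT. LIV gave 7.17, 7.51, 7.17 and 7.53 fed and 6.59, 6.62, 6.22, 6.55 and 6.99 fasted. SM gave 8.07, 8.25, 8.38, 8.44 and 8.28 fed and 7.88, 7.66, 7.53 and 7.80 fasted, with 7.79 on the array left out. Every fasted array used was below every fed array used in all 3 tissues, and the SM array left out lay within the fasted range. The change was -0.91 ± 0.11 (SE), a 1.87-fold difference with an adjusted p of 5.19e-07 in WAT, -0.75 ± 0.12 (SE), a 1.68-fold difference with an adjusted p of 5.33e-05 in LIV and -0.57 ± 0.12 (SE), a 1.48-fold difference with an adjusted p of 7.34e-04 in SM. Irgm1 changed by -0.27, -0.37 and -0.09 in WAT, LIV and SM, under the minimum fold in each.

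Antiviral effectors fell in part in WAT and LIV. Of 12 measured, 5 fell and 2 rose in WAT, 4 fell in LIV and 1 fell in SM. Over all genes 7.75% fell and 7.99% rose in WAT, 4.01% fell in LIV and 5.78% fell in SM. The single fall in SM was near that share. The medians of the changes of the 12 were -0.26, -0.30 and -0.10. Ifit3, which with Ifit1 and Ifit2 forms a family that binds foreign RNA, was the gene of the list with the largest change in WAT. It read 8.06, 9.14, 8.40, 8.44 and 8.39 in fed WAT and 6.81, 6.95, 7.02, 7.24 and 7.29 in fasted WAT, a change of -1.42 ± 0.16 (SE), a 2.68-fold difference with an adjusted p of 1.39e-07. In LIV it read 7.51, 7.56, 7.82 and 7.41 fed and 7.14, 7.32, 6.51, 6.85 and 7.51 fasted, a change of -0.51 ± 0.17 (SE), a 1.42-fold difference with an adjusted p of 0.0498, a call that was lost under 12 of 19 alternative settings. In SM it read 6.80, 7.10, 6.97, 6.72 and 6.60 fed and 6.05, 6.06, 5.98 and 6.17 fasted, a change of -0.77 ± 0.17 (SE), a 1.71-fold difference with an adjusted p of 0.00137. The groups were apart in WAT and SM, and in LIV fasted array 5 reached the fed range. The SM array left out read 7.36, above all fed SM arrays, and with it the SM change was -0.51 (adjusted p = 0.0923).

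The other IFIT genes were called in WAT or not at all. Ifit1 fell in WAT by 0.66 (adjusted p = 0.00408), with all fasted below all fed arrays, and its changes in LIV and SM were -0.08 and -0.16. Ifit2 was called in no tissue, with changes of 0.02, -0.35 and -0.03. These 3 genes lie together on chromosome 19.

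Bst2 (tetherin), which holds budding virus particles at the cell surface, fell in WAT and LIV. It read 6.61, 6.78, 6.77, 6.65 and 6.59 in fed and 6.28, 6.27, 6.29, 6.25 and 6.41 in fasted WAT, a change of -0.38 ± 0.08 (SE), a 1.304-fold difference with an adjusted p of 5.03e-04. In LIV it read 8.31, 8.34, 8.29 and 8.51 fed and 8.03, 7.94, 8.03, 7.91 and 7.98 fasted, a change of -0.38 ± 0.08 (SE), a 1.304-fold difference with an adjusted p of 0.00229. Neither tissue showed overlap between the groups, and both changes were just past 1.3-fold. In SM the change was -0.30, past the adjusted p threshold (0.0102) and under the minimum fold.

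The oligoadenylate synthetases, which switch on RNase L, were not uniform. Oas2 was the gene of the list called in opposite directions in different tissues. In WAT it read 6.51, 6.62, 6.34, 6.11 and 6.46 fed and 7.32, 6.64, 6.62, 7.003 and 6.50 fasted, a rise of 0.41 ± 0.14 (SE), a 1.33-fold difference with an adjusted p of 0.0341, and in LIV it read 5.21, 5.70, 5.70 and 5.59 fed and 5.03, 4.80, 4.71, 4.85 and 5.28 fasted, a change of -0.62 ± 0.15 (SE), a 1.53-fold difference with an adjusted p of 0.00565. The groups overlapped in both tissues: fasted WAT arrays 1 and 4 were well above the fed range and the other 3 within or just above it, and fasted LIV 5 was above fed LIV 1. The rise in WAT was lost under 8 of 20 alternative settings. Oasl2 fell in LIV, from 6.86, 7.14, 6.86 and 6.72 to 6.67, 6.54, 6.16, 6.15 and 6.52, without overlap and by 0.49 (adjusted p = 0.00614), and its change in WAT was -0.001. Oas1a was called in no tissue, with changes of -0.08, -0.25 and -0.10.

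Isg20, an exonuclease that degrades RNA, rose in WAT. It read 9.18, 9.35, 9.33, 9.32 and 9.25 fed and 9.89, 9.64, 9.68, 10.21 and 9.86 fasted, a change of 0.57 ± 0.11 (SE), a 1.49-fold difference with an adjusted p of 1.83e-04. All fasted arrays were above all fed ones there, and the changes in LIV and SM were -0.16 and 0.27, neither called. Zbp1, a sensor of left-handed nucleic acid, and Rsad2 (viperin), which makes a chain-terminating nucleotide, fell in WAT by 0.44 and 0.42 (adjusted p = 0.004 and 0.033). Rsad2 groups overlapped in WAT, and its call was lost under 8 of 20 alternative settings. Eif2ak2 (PKR), a kinase that halts translation, changed by -0.36 in WAT and -0.35 in SM without overlap of the groups but under 1.3-fold. On the SM array left out it read 5.93, within the fed SM range. Mx2 was called nowhere.

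**Figure D4:**
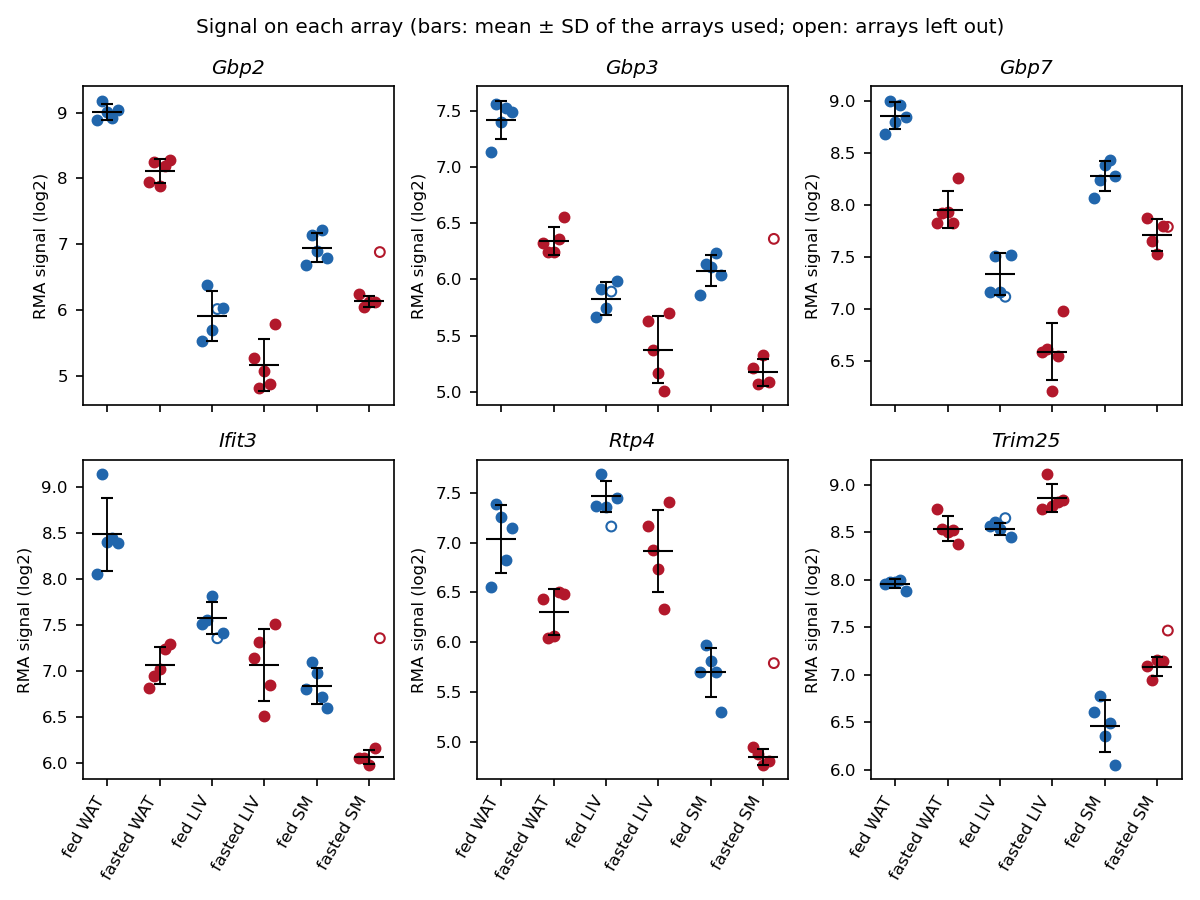
RMA signal (log2, y axis) on each array for Gbp2, Gbp3, Gbp7, Ifit3, Rtp4 and Trim25 in the 6 groups (x axis), fed in blue and fasted in red, with black bars for the mean ± SD of the arrays used and open circles for the arrays left out. In WAT and SM the filled fasted points lie below the filled fed points for Gbp2, Gbp3, Gbp7, Ifit3 and Rtp4 and above them for Trim25, and for Ifit3 the open fasted SM point, at 7.36, lies above every fed SM point.

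Sensing and signalling genes were called in WAT and SM. Of 7 measured, 2 fell and 1 rose in WAT, none was called in LIV, and 1 fell and 1 rose in SM. Over all genes 7.75% fell and 7.99% rose in WAT, and 5.78% fell and 7.8% rose in SM, so with 7 genes a single call is near that share. Dhx58 (LGP2), a helicase that tunes RNA sensing, read 5.99, 6.44, 6.35, 6.22 and 6.03 in fed and 5.12, 5.34, 5.39, 5.68 and 5.68 in fasted WAT, a change of -0.76 ± 0.12 (SE), a 1.70-fold difference with an adjusted p of 2.32e-05, with all fasted below all fed arrays. Ddx58 (RIG-I), a cytosolic RNA sensor, fell in WAT by 0.50 (adjusted p = 1.30e-04). In LIV the changes of Dhx58 and Ddx58 were -0.04 and -0.12. Ifih1 (MDA5), the sensor of long double-stranded RNA, changed by -0.30 in WAT and -0.32 in LIV, past the adjusted p threshold but under the minimum fold, with no overlap of the groups in either.

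Trim25, the ubiquitin ligase that activates RIG-I, was the gene of the list that rose in WAT and SM. It read 7.96, 7.98, 7.98, 7.995 and 7.88 in fed and 8.74, 8.53, 8.51, 8.52 and 8.37 in fasted WAT, a change of 0.58 ± 0.09 (SE), a 1.49-fold difference with an adjusted p of 2.31e-05. In SM it read 6.61, 6.77, 6.35, 6.49 and 6.05 fed and 7.09, 6.94, 7.15 and 7.15 fasted, a change of 0.63 ± 0.10 (SE), a 1.55-fold difference with an adjusted p of 1.90e-05, with 7.46 on the array left out. LIV gave 8.56, 8.60, 8.53 and 8.45 fed and 8.75, 9.11, 8.78, 8.81 and 8.84 fasted, a change of 0.32 (adjusted p = 0.0288) that stayed under the minimum fold. Fasted arrays were above fed arrays without overlap in all 3 tissues. Stat2, the STAT of the ISRE complex, fell in SM by 0.56 (adjusted p = 1.37e-06), without overlap among the arrays used. Its changes in WAT and LIV were -0.29 and 0.02. The SM array left out read 6.18 for Stat2, above all fed SM arrays. With that array kept in, the SM change was -0.39 (limma adjusted p = 0.0198), still called. The call was lost with fasted SM 1 left out in place of fasted SM 5.

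Usp18, which removes ISG15 from proteins and dampens the interferon receptor, was not called in any tissue. Its changes were -0.21, 0.10 and -0.40 in WAT, LIV and SM. The probe set annotated to Isg15, the ubiquitin-like modifier, is numbered between those of Abcc10 and Slc22a7 on chromosome 17, while Isg15 lies on chromosome 4, so its assignment is uncertain. Its values were low, from 3.97 to 4.94 over the 30 arrays against a median of 5.03 over all values, and its changes of -0.11, -0.07 and 0.10 were not called.

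The list holds 5 genes of antigen processing. Of these, 1 fell in WAT, 1 in LIV and 3 in SM, where 7.75%, 4.01% and 5.78% of all genes did. With 5 genes a single call says little beside these shares. All 5 fitted changes were below 0 in each tissue, and the medians were -0.23, -0.35 and -0.51. Psmb8 and Psmb9, catalytic subunits of the immunoproteasome, fell in SM: Psmb8 read 5.61, 6.00, 5.83, 5.99 and 5.79 fed and 5.32, 5.24, 4.98 and 5.04 fasted, a change of -0.70 ± 0.12 (SE), a 1.62-fold difference with an adjusted p of 4.89e-05. Psmb9 read 6.30, 6.52, 6.53, 6.30 and 6.30 fed and 5.76, 5.99, 5.93 and 5.39 fasted in SM, a change of -0.63 ± 0.12 (SE), a 1.54-fold difference with an adjusted p of 4.02e-04, and 7.65, 7.87, 7.78, 7.99 and 7.76 fed and 7.26, 7.50, 7.23, 7.17 and 7.50 fasted in WAT, a change of -0.48 ± 0.12 (SE), a 1.39-fold difference with an adjusted p of 0.00263. The groups did not overlap in these comparisons. On the SM array left out Psmb8 read 7.09 and Psmb9 7.34, above every fed SM array. With that array kept in, the SM changes were -0.31 for both, with adjusted p of 0.424 for Psmb8 and 0.336 for Psmb9.

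Psmb10, the remaining catalytic subunit, fell in LIV. It read 7.87, 8.55, 8.44 and 8.46 fed and 7.41, 7.52, 7.48, 7.40 and 7.57 fasted, a change of -0.86 ± 0.11 (SE), a 1.81-fold difference with an adjusted p of 4.56e-06, and all fasted were below all fed arrays. Tap1, which carries peptides into the endoplasmic reticulum, fell in SM by 0.51 (adjusted p = 0.00219). With all 30 arrays this change was -0.09 (adjusted p = 0.873), the array left out reading 7.52. Tapbp (tapasin), which loads peptides on MHC class I, changed by -0.23, -0.24 and -0.14 and was called in none. Psmb5, Psmb6 and Psmb7, the subunits of the constitutive proteasome in the same positions, were called in no tissue, with median changes of -0.26, 0.07 and 0.09 in WAT, LIV and SM. In WAT they changed by -0.29, -0.26 and -0.21, under the minimum fold but past the threshold (limma adjusted p = 0.00293, 0.0243 and 0.0021). Psmb8, Psmb9 and Psmb10 changed there by -0.19, -0.48 and -0.25, of which Psmb9 was called.

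Among the 7 remaining genes measured, 2 fell in WAT, 2 in LIV and 3 in SM, where 7.75%, 4.01% and 5.78% of all genes did. Rtp4, a chaperone of receptors on their way to the membrane, fell in all 3 tissues. It read 6.56, 7.39, 7.26, 6.83 and 7.15 in fed and 6.43, 6.05, 6.06, 6.50 and 6.49 in fasted WAT, a change of -0.73 ± 0.16 (SE), a 1.66-fold difference with an adjusted p of 0.00105. LIV gave 7.37, 7.69, 7.35 and 7.45 fed and 7.17, 6.93, 6.73, 6.33 and 7.41 fasted, a change of -0.55 ± 0.17 (SE), a 1.46-fold difference with an adjusted p of 0.0332. SM gave 5.70, 5.97, 5.81, 5.70 and 5.30 fed and 4.95, 4.88, 4.77 and 4.80 fasted, a change of -0.85 ± 0.17 (SE), a 1.80-fold difference with an adjusted p of 5.46e-04, with 5.79 on the array left out. The groups were apart in WAT and SM, and fasted LIV 5 lay within the fed LIV range. The LIV call was lost under 10 of 19 alternative settings.

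Cmpk2, a mitochondrial nucleotide kinase, fell in WAT and SM. It read 5.97, 6.75, 6.62, 6.06 and 6.10 in fed and 5.71, 5.68, 5.73, 5.87 and 5.82 in fasted WAT, a change of -0.54 ± 0.15 (SE), a 1.46-fold difference with an adjusted p of 0.0065, without overlap. In SM it read 5.47, 5.99, 5.81, 5.96 and 5.53 fed and 5.28, 5.14, 5.25 and 5.599 fasted, a change of -0.43 ± 0.16 (SE), a 1.35-fold difference with an adjusted p of 0.0477, with fasted array 4 inside the fed range, and this call was lost under 10 of 19 alternative settings. Xaf1, a pro-apoptotic zinc finger protein, read 5.68, 6.38, 5.99 and 6.15 in fed and 5.77, 5.56, 5.32, 5.10 and 5.59 in fasted LIV, a change of -0.58 ± 0.12 (SE), a 1.497-fold difference with an adjusted p of 0.00176, with fasted array 1 above fed array 1. In SM it read 5.41, 5.74, 5.84, 5.84 and 5.46 fed and 5.34, 5.21, 5.33 and 5.23 fasted, a change of -0.38 ± 0.12 (SE), a 1.301-fold difference with an adjusted p of 0.0274, just past 1.3-fold and without overlap, which was lost under 8 of 19. The SM array left out read 5.77 for Xaf1, within the fed SM range. Cxcl10, a chemokine for T cells, changed by 0.31, 0.02 and -0.25 and was not called.

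The tissues differed in how far single genes moved. The change in WAT minus the change in LIV was called for 9 of 35 genes, where 16.1% of all genes were called. It was negative for Ifit3, at -0.91 ± 0.24 (SE, adjusted p = 0.00713), Dhx58, at -0.72 ± 0.18 (SE, adjusted p = 0.00495), and Gbp3, at -0.62 ± 0.16 (SE, adjusted p = 0.00612), which fell further in WAT. Ddx58 and Rsad2 also had negative differences, at -0.39 ± 0.14 (SE, adjusted p = 0.0497) and -0.65 ± 0.21 (SE, adjusted p = 0.0307). It was positive for Oas2, at 1.02 ± 0.21 (SE, adjusted p = 7.09e-04), Isg20, at 0.73 ± 0.16 (SE, adjusted p = 0.00143), Psmb10, at 0.61 ± 0.16 (SE, adjusted p = 0.00643), and Oasl2, at 0.49 ± 0.17 (SE, adjusted p = 0.041). The p-values are from the limma interaction contrasts, adjusted over all probe sets. The fit did not account for the mice that the tissues share.

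WAT and SM differed in 3 of 35 genes, against a background of 15.1%. The change in WAT minus that in SM was -0.59 ± 0.18 (SE, adjusted p = 0.0211) for Dhx58, -0.47 ± 0.11 (SE, adjusted p = 0.00461) for Ifi35, a leucine zipper protein, and 0.51 ± 0.16 (SE, adjusted p = 0.0282) for Psmb8. SM and LIV also differed in 3 genes, against 15.3%. The change in SM minus that in LIV was 0.64 ± 0.21 (SE, adjusted p = 0.0389) for Oas2, 0.56 ± 0.16 (SE, adjusted p = 0.0163) for Psmb10 and -0.58 ± 0.10 (SE, adjusted p = 2.11e-04) for Stat2. Without fasted LIV 3 the count for WAT and SM was 5, with Ifit3 and Rsad2 in addition. The LIV arrays are shared by the comparisons of LIV with WAT and with SM. For Gbp2, Gbp7 and Rtp4 no difference of change between tissues was called.

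In fed mice SM held the lowest levels of most of these genes. Fed SM was below fed WAT for 31 of 35 genes, where 27.2% of all genes were higher in WAT, and below fed LIV for 31, where 21.8% were lower in SM than in LIV. The median difference over the 35 genes was 1.31 for WAT minus SM and -1.20 for SM minus LIV, against -0.02 and 0.05 over all genes. By mean, SM was lowest for 31 genes and highest for none, WAT was highest for 18 and LIV for 17, and 27 genes were called below both other tissues in SM. Between WAT and LIV, 10 genes were higher in WAT (background 25.7%) and 13 in LIV (background 18.7%). RMA set the arrays of all tissues to a common distribution, so these are levels relative to the other transcripts of a tissue.

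The 4 exceptions to the low level in SM were all GTPases. Gbp2 was at 9.01 ± 0.12 (SD, n = 5) in fed WAT, 6.94 ± 0.22 (n = 5) in fed SM and 5.91 ± 0.38 (n = 4) in fed LIV, and each step was called. Gbp7 followed the same order, at 8.86 ± 0.13, 8.28 ± 0.14 and 7.34 ± 0.20. For Gbp3, at 7.42 ± 0.17 in WAT, 6.08 ± 0.14 in SM and 5.83 ± 0.15 in LIV, the step between SM and LIV was not called (limma adjusted p = 0.0699). Irgm1 was lowest in WAT, at 7.26 ± 0.12, with 7.76 ± 0.07 in SM and 8.82 ± 0.16 in LIV. In fed SM the means of 7 genes were below the median of all values, 5.03, and those of 2 genes were below it in every tissue, namely Isg15 and Oas1a. The probe set read for Isg15 is of uncertain assignment, so its low signal may not be the level of that gene.

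**Figure D5:**
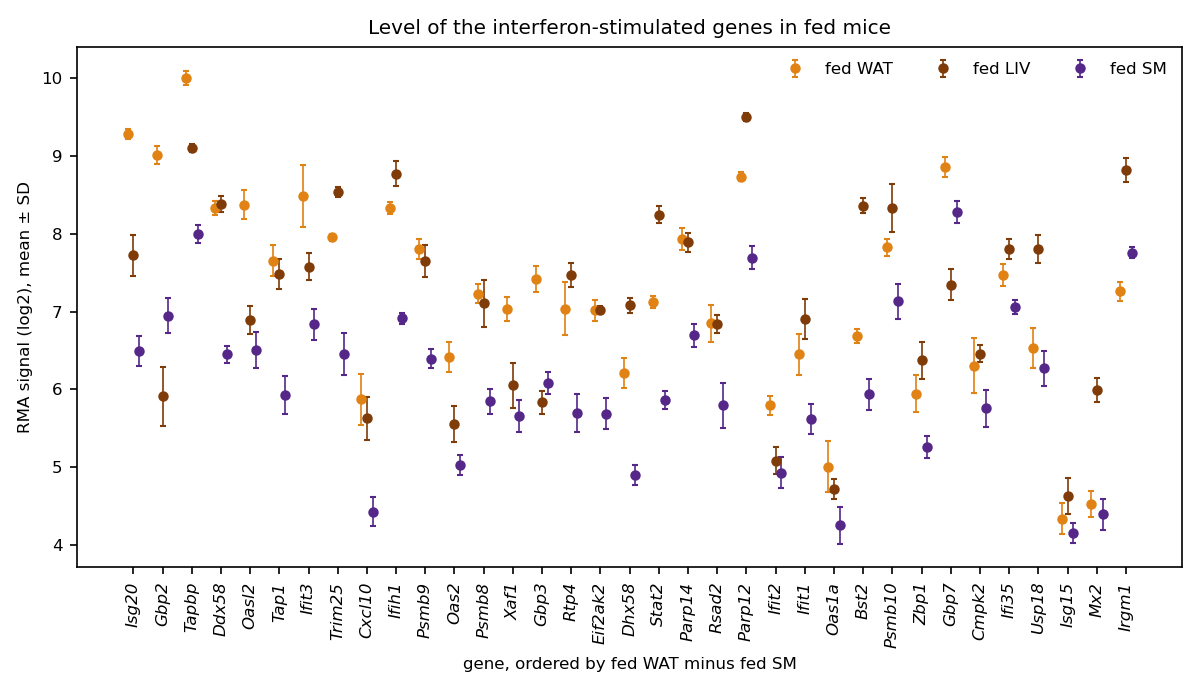
Mean ± SD of the RMA signal (log2, y axis) of each of the 35 interferon-stimulated genes (x axis, ordered by fed WAT minus fed SM) in fed WAT (n = 5), fed LIV (n = 4) and fed SM (n = 5). The SM points are the lowest for 31 genes, and Gbp2, Gbp3, Gbp7 and Irgm1 are the exceptions, levels being comparable across tissues for a gene and not between genes.

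The genes that carry the interferon signal showed no common direction. Of 31 listed ligands, receptors, kinases, adaptors and transcription factors, 29 were measured. The calls among them lay near the shares over all genes, which were 7.99% up and 7.75% down in WAT, 3.53% and 4.01% in LIV, and 7.8% and 5.78% in SM. In WAT 2 rose and 3 fell, with a median change of 0.02: Ptpn2, a phosphatase of JAK kinases, rose by 0.72 and Tlr7, a sensor of single-stranded RNA, by 0.51, while Irf7, Irf9 and Sting1, transcription factors and an adaptor of the response, fell by 0.57, 0.49 and 0.48. In LIV 2 fell, Tlr3 by 0.54 and Tyk2 by 0.40, with a median of -0.01. In SM 3 rose and 2 fell, with a median of 0.07: Tbk1, the kinase that activates interferon regulatory factors, rose by 1.02, Myd88 by 0.48 and Mavs by 0.40, while Ifngr2, a chain of the interferon-gamma receptor, fell by 0.43 and Socs1 by 0.40.

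Interferon-induced genes outside the 39 were also counted. Their list, like the 39, was chosen with earlier results of these data known, so it is no independent check. Of 56 such genes on a second list, 49 were measured: 9 fell and 1 rose in WAT, 9 fell and 1 rose in LIV, and 13 fell and 4 rose in SM, with medians of -0.14, -0.24 and -0.18. Over all genes the shares were 7.75% down and 7.99% up in WAT, 4.01% and 3.53% in LIV, and 5.78% and 7.8% in SM, and the 4 rises in SM were near that share. In WAT the largest falls were of Cd274 (PD-L1), by 1.44, Gbp5, by 1.04, Iigp1, by 1.01, and Lgals3bp, by 0.78, and Ifitm1 rose by 0.44. In LIV they were of Cxcl9, a chemokine induced by interferon-gamma, by 1.299, Gbp4, by 0.89, Ube2l6, by 0.57, and Ifitm3, by 0.53, and Tor3a rose by 0.41. In SM Gbp4 fell by 1.46, Iigp1 by 1.42, Cxcl9 by 1.06 and Cd274 by 0.91, and the genes that rose were Daxx, by 0.66, Tor3a, by 0.63, Trex1, by 0.43, and Apobec3, by 0.38.

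Some macrophage markers also fell in LIV. Of 11 macrophage markers, 4 fell there, where 4.01% of all genes did. These were Adgre1 by 0.78, Csf1r by 0.59, Clec4f by 0.55, a marker of Kupffer cells, and Fcgr1, itself induced by interferon, by 0.52. The other 7 were not called, with Cd14 and Cd163 at 0.27 and 0.11, and 9 of the 11 changes were below 0. The list mean was 6.34 to 6.74 on the fed LIV arrays used and 6.06 to 6.44 on the fasted ones, with fed LIV 4, left out, at 6.68, and its part in the fall of the interferon-stimulated genes was not tested. In WAT the macrophage markers Cd163 and Cd14 rose by 1.13 and 0.64 and Fcgr1 fell by 0.62, with list means of 7.14 to 7.24 fed and 7.08 to 7.52 fasted. In SM Cd163 and Cd68 rose by 0.73 and 0.52, with list means of 5.45 to 5.76 fed and 5.50 to 5.91 on the fasted arrays used.

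Dendritic cell markers moved both ways. Of 5 dendritic cell markers in WAT, Itgax and Xcr1 fell by 0.69 and 0.44 and Zbtb46 and Siglech rose by 0.42 and 0.39, with list means of 4.82 to 5.06 fed and 4.68 to 5.08 fasted. No B cell, T and NK cell or neutrophil marker was called in any tissue over the 28 arrays. On 1 fed WAT array the B cell list reached 5.82, where fasted WAT arrays lay between 4.25 and 4.95. Of 6 adipocyte markers measured, 3 fell in SM (Lep, Plin1 and Retn), where 5.78% of all genes did. The list mean in SM was 7.45 to 9.84 on fed arrays and 7.37 to 8.49 on the fasted arrays used. In WAT itself Lep fell by 1.93 and the other 5 were not called, with list means of 12.04 to 12.26 fed and 11.38 to 12.01 fasted. In LIV Cidec rose by 2.35. Kdr, an endothelial receptor, fell in SM by 0.82, the only one of 7 endothelial markers called in any tissue. Pecam1, another of them, changed there by 0.36 (limma adjusted p = 4.28e-04), under the minimum fold. The 4 fibroblast markers moved both ways: Col3a1 fell in WAT, LIV and SM by 0.76, 0.84 and 0.95, Col1a1 fell in SM by 0.63, Pdgfra rose in LIV by 0.50, and Dcn was called in none, with changes of 0.06, 0.07 and 0.07. The part of these cell types in the results was not tested.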

How the data were processed

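Transcripts were read on Affymetrix Mouse Gene 1.1 ST arrays, 5 per group. The authors normalized the scans by default RMA in Partek and deposited log2 values for 28815 probe sets and 30 arrays, 0 of whose columns lacked a sample. RMA sets all arrays to 1 distribution, so values are relative within an array. Signal over background was not analysed here, and the number of arrays limits the precision.

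Of the probe sets, 21153 name 1 gene, 1867 name several and 5795 are not listed in the annotation used. The probe set of highest mean stood for each of 18781 genes. Group means over 28 arrays were fitted with limma 3.58.1 in R 4.3.3 with moderated variances, following the 2 factors of the study (diet and tissue), and p-values were adjusted by Benjamini-Hochberg over all probe sets. The limma adjusted p had to be under 0.05 and the change at least 1.3-fold. The rule of choosing the genes names fasted SM 5 as left out, and fed LIV 4 was left out in addition, as in the study. A block on the replicate number is given below, and the numbers showed no pairing of samples common to the tissues. Tables and figures used Python 3.11.15, pandas 2.3.3, numpy 2.4.6 and matplotlib 3.10.9, and the procedure was tested on simulated data.

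The 39 genes, the other gene lists, the marker lists and the grouping by role were chosen with earlier results of these data known. All values by array are given for genes called in 2 or more tissues, called in opposite directions, or called without overlap with up to 6 of the largest falls and rises in a tissue. Alternatives were other sets of arrays, each array left out in turn, each tissue fitted alone, unmoderated variances, blocks, cyclic loess within tissues, no dim probe sets, the mean of the probe sets of a gene, no minimum fold or 1.5-fold, and a false discovery rate of 1%. Promoter windows were read from RefSeq tables and searched for motifs on both strands.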

Additional observations from a re-analysis of the deposited data

Results flagged for a closer look

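Of 82 sets of values examined (a called gene in 1 group), 4 held an array far from the others, and chance gives this in about 5% of sets. The gap to the nearest array, as a share of the range of the group, was 0.752 for Bst2 and 0.750 for Gbp7 in fasted WAT, where array 5 was highest, 0.759 for Ifit1 in fasted WAT, where array 3 was lowest, and 0.837 for Psmb10 in fed LIV, where array 1 was lowest. No cause was tested.

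The change differed between tissues, by the limma interaction contrasts, for 15 pairs of a gene and a comparison. For WAT minus LIV the differences were -0.39 for Ddx58, -0.72 for Dhx58, -0.62 for Gbp3, -0.91 for Ifit3, 0.73 for Isg20, 1.02 for Oas2, 0.49 for Oasl2, 0.61 for Psmb10 and -0.65 for Rsad2. For WAT minus SM they were -0.59 for Dhx58, -0.47 for Ifi35 and 0.51 for Psmb8. For SM minus LIV they were 0.64 for Oas2, 0.56 for Psmb10 and -0.58 for Stat2.

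On fasted SM 5, an array left out, 23 of the 35 interferon-stimulated genes were above every fed SM array, together with the raised B cell and T cell markers given above. Whether these go together was not tested.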

How the results depend on the processing

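Of 38 calls of a gene in a tissue, 22 held under every alternative of arrays (single arrays left out of the same tissue), model, scaling and probe sets, other thresholds aside, and no called change turned its direction. With the minimum fold raised to 1.5-fold WAT had 7, LIV 4 and SM 7, and 1 each for the differences of change WAT minus SM and SM minus LIV, and with no minimum fold the LIV count was 17. At a false discovery rate of 1% both of these differences gave 1. With all 30 arrays the SM count was 6 and the SM median -0.088, and with fed LIV 4 and fasted SM 1 left out they were 5 and -0.075, with 5 for WAT minus LIV. Cyclic loess gave 5 for WAT minus SM, and leaving out dim probe sets gave 5 for WAT minus SM and 6 for SM minus LIV, fewer probe sets being adjusted over. With 1 array left out at a time the counts ranged from 13 to 17 in WAT, 6 (without fasted LIV 4) to 13 in LIV and 10 to 13 in SM, from 6 to 9 for WAT minus LIV, 2 to 5 (without fasted LIV 3) for WAT minus SM and 2 to 4 for SM minus LIV. The medians then ranged from -0.31 to -0.23 in WAT, -0.31 to -0.19 in LIV and -0.31 to -0.22 in SM. The cause of these shifts was not tested.

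The replicate numbers showed no pairing of the arrays common to the tissues: deviations of equally numbered fed and fasted arrays correlated at -0.376 to 0.402, and an array matched its own number best in 1 of 10 cases in WAT, 3 of 9 in LIV and 5 of 9 in SM. In SM all these correlations were above 0, at 0.036 to 0.236, and whether the numbers pair the SM arrays was not tested. With the number as a block WAT had 15 calls, LIV 6 and SM 13, and with arrays of equal state and number across tissues as a random block (correlation 0.027), which the labels do not say are the same mouse, these were 16, 10 and 12.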

Other observations

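Among fed mice, the array numbered 2 had the highest median deviation of the 35 genes in each tissue, at 0.16 in WAT, 0.11 in LIV and 0.13 in SM. The labels number replicates within a tissue and do not say that equal numbers are the same mouse, so whether these arrays share an animal was not tested.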
